A study of Mus musculus with 21 samples.

Results

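The ATP-sensitive potassium (KATP) channel is built from 2 kinds of subunit, and transcripts of all 4 subunit genes were followed here in the gastrocnemius muscle of the mouse. The genes are Kcnj11 and Kcnj8, which encode the pore subunits Kir6.2 and Kir6.1, and Abcc8 and Abcc9, which encode the sulfonylurea receptors SUR1 and SUR2. They were found by gene symbol as 4 of the 40853 genes in the table of read counts, and all 4 passed the filter on low counts that left 16129 genes for testing. RNA came from the whole medial belly of the muscle of 21 female C57BL/6NJ mice, which were 10 weeks old at the start and fell into 3 groups of 7, with 1 library per mouse. The Inactive group stayed in standard housing for 6 weeks. The Active group ran on a treadmill 5 days a week for 6 weeks, in sessions that lasted up to 40 min in all and combined a slow warm-up with running at 70% of maximal speed, and the Activity Reduction group ran in the same way for 4 weeks and was then inactive for 2 weeks. Mice of every group, the Inactive controls included, completed a maximal running test 48 to 72 h before the muscle was collected, and all were fasted for 5 to 6 h according to the labels. No group was therefore free of recent running, and sex, strain and age were shared by all.

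A KATP channel is an octamer in which inward rectifier subunits line the pore and each is paired with a regulatory receptor of the ATP-binding cassette family. ATP bound to the pore subunit closes the channel, magnesium-bound ADP acting through the receptor opens it, and the channel thus ties the membrane potential to the energy state of the cell. In skeletal muscle fibres the sarcolemmal channel is known mainly as Kir6.2 with SUR2A, vascular smooth muscle and pericytes use Kir6.1 with SUR2B, and pancreatic beta cells use Kir6.2 with SUR1.

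One member was known to differ before the family was taken up. Kcnj11 led to the choice of these genes by its difference between Activity Reduction and Inactive mice, so its values are given as a description and no test of it is reported, in that comparison or in those that share its mice. The other 3 members were included for their family and not for their own values, and they were tested. Earlier results of these data were known when the members were chosen, and these tests use the mice from which Kcnj11 was picked.

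The 4 genes lie in 2 tandem pairs, each with a pore gene beside a receptor gene on the same strand. In GRCm39 with the GENCODE vM39 annotation, Kcnj11 occupies chr7:45743377-45750188 and Abcc8 occupies chr7:45753947-45829473, with 3758 bp between them. Kcnj8 occupies chr6:142510563-142517830 and Abcc9 occupies chr6:142533588-142648571, with 15757 bp between them. All 4 are protein-coding genes on the minus strand. The canonical transcript of Kcnj11 is a single exon of 3142 bp with 1170 coding bases, and that of Kcnj8 has 3 exons. Abcc8 has 39 exons and Abcc9 has 40.

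The stretch that codes for the pore's selectivity filter is shown for both pore genes, because it is the part of the channel through which potassium passes and shows how alike the paralogs are. Each stretch is 75 bases of coding exon on the minus strand, from chr7:45748890-45748964 for Kcnj11 and chr6:142512144-142512218 for Kcnj8, written 5′ to 3′ with the codons of the filter in capitals.
Kcnj11: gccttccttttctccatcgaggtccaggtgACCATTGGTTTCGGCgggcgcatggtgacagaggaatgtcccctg
Kcnj8: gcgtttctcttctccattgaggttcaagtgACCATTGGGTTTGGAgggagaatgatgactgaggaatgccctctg
Over this stretch 60 of 75 bases were identical. Over the aligned coding sequences of the pore genes 75.0% of bases were identical. The longest run of bases shared by their whole canonical transcripts, at any position, was 21 bp. The receptor genes had 71.5% identity over their aligned coding sequences, and the longest run shared by their canonical transcripts was 23 bp.

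SUR2A and SUR2B are splice forms of Abcc9 that differ in the last coding exon, which is the reason for showing these exons. The annotation holds 2 alternative last coding exons of 135 bases each, which end 11 and 20 of its 34 Abcc9 transcripts. They are written 5′ to 3′ from the minus strand in lower case, from chr6:142536095-142536229 for transcript Abcc9-203 and chr6:142539734-142539868 for Abcc9-202, with the last coding exon of the canonical Abcc8 transcript from chr7:45754051-45754185.
Abcc9-203: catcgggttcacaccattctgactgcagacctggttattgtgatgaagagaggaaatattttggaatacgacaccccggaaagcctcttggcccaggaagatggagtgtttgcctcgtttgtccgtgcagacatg
Abcc9-202: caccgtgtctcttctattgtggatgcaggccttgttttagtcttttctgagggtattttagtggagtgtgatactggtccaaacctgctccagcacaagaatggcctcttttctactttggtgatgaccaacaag
Abcc8: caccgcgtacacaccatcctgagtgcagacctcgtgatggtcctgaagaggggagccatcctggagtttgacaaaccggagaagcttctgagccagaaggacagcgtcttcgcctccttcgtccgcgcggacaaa
The exon of Abcc9-203 matched that of Abcc8 at 72.4% of aligned bases, whereas the exon of Abcc9-202 matched it at 58.9%, and the 2 Abcc9 exons matched each other at 56.8%. The deposited values are 1 count per gene and library, so the Abcc9 counts below hold both splice forms together.

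All 4 subunit transcripts were counted in every library, at very different levels. Levels between genes were compared as CPM, which are counts scaled to the size of the library, divided by the length in kilobases of the canonical transcript, over 21 libraries. Kcnj11 had the highest level of the 4, 57.3 ± 5.28 CPM per kb (SD), which was higher than that of 95.6% of the 15006 tested genes with a known length. Abcc9 followed with 42.0 ± 1.95 CPM per kb, above 93.8% of the genes. Kcnj8 had 4.85 ± 0.523 CPM per kb, above 64.2% of the genes, and Abcc8 had 1.11 ± 0.196 CPM per kb, above 35.7%. The ranges of neighbours in this order did not overlap, since the lowest Kcnj11 library had 47.7 CPM per kb and the highest Abcc9 library had 45.4. With the length of all annotated exons of a gene in place of the canonical transcript, the order was the same, with 49.0 CPM per kb for Kcnj11, 27.0 for Abcc9, 3.91 for Kcnj8 and 0.646 for Abcc8.

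**Figure D1:**
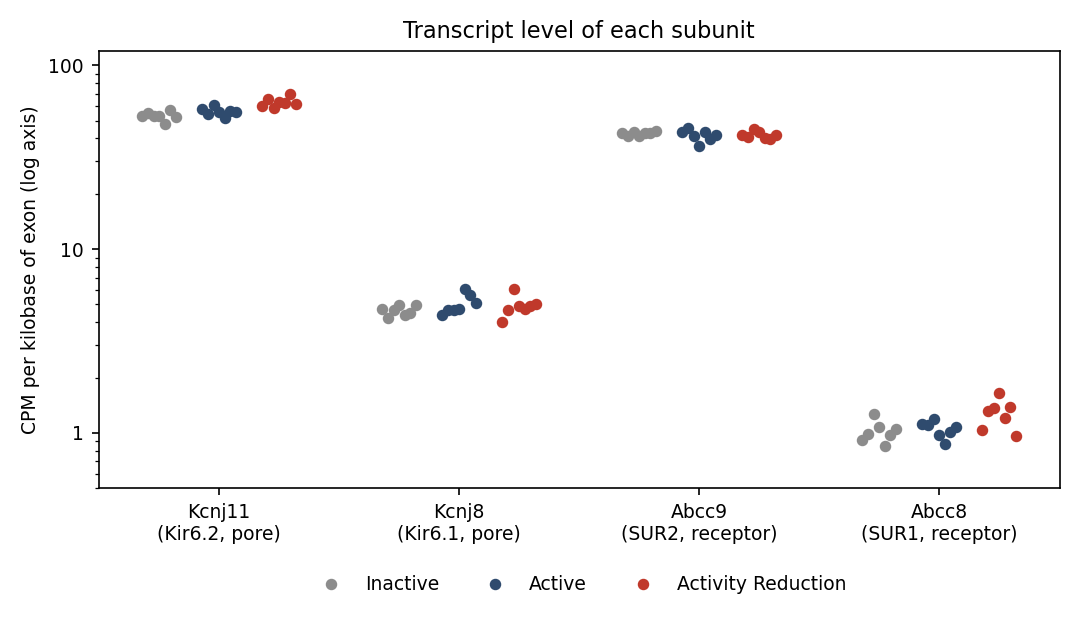
Transcript level of each subunit in CPM per kb of the canonical transcript, on a log axis, with 1 point per mouse coloured by group. Kcnj11 (47.7 to 70.0) and Abcc9 (36.5 to 45.4) lie far above Kcnj8 (4.03 to 6.07) and Abcc8 (0.850 to 1.64).

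Kcnj11, the pore gene of the muscle fibre's own channel, thus dominated the pore transcripts. It made up 91.9% ± 0.623 (SD, n = 7) of pore transcripts per kb in Inactive, 91.7% ± 1.20 in Active and 92.8% ± 1.02 in Activity Reduction mice. Abcc9 made up 97.7% ± 0.288, 97.5% ± 0.247 and 97.0% ± 0.494 of receptor transcripts per kb in the same order of groups. In each mouse the most abundant pore and receptor transcripts were those of the pair known from muscle fibres.

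The ratio of the abundant receptor transcript to the abundant pore transcript is given for each group as a description. The level of Abcc9 per kb divided by that of Kcnj11 was 0.806 ± 0.0525 (SD, n = 7) in Inactive, 0.746 ± 0.0720 in Active and 0.668 ± 0.0619 in Activity Reduction mice. The ratio ran from 0.746 to 0.895 in Inactive mice and from 0.570 to 0.766 in Activity Reduction mice, so these groups overlapped only at the edge. This ratio uses Kcnj11, which was picked for its difference between these groups, and was not tested. Within the receptors, Abcc9 exceeded Abcc8 by 42.4 ± 5.21 times in Inactive, 39.9 ± 4.57 times in Active and 33.8 ± 6.12 times in Activity Reduction mice, with overlapping ranges. Kcnj11 exceeded Kcnj8 by 11.5 ± 1.01, 11.3 ± 1.64 and 13.03 ± 1.71 times in the same order, and this ratio, which also uses Kcnj11, was not tested.

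Differences between groups are given as normalized counts, which are read counts divided by the size factor of each library, and as log2 fold changes of the first-named group over the second, from an edgeR model of all 21 libraries. To be called differentially expressed, a transcript needed a log2 fold change beyond 0.25 in size and an adjusted p-value below 0.05.

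Kcnj11 was higher in every Activity Reduction mouse than in any Inactive mouse. Its normalized counts ran from 7486 to 8918 with a median of 8232 in Inactive mice, from 7983 to 9489 with a median of 8728 in Active mice, and from 9174 to 10916 with a median of 9681 in Activity Reduction mice. Activity Reduction and Inactive mice did not overlap, Active mice lay between and overlapped with both, and 5 of 7 Activity Reduction mice were above the highest Active mouse. Among all genes tested, 0.0558% were higher in every Activity Reduction mouse than in every Inactive mouse and 0.118% did not overlap in either direction. The first-named group lay wholly above the second for 0.0434% of genes between Active and Inactive mice and for 0.18% between Activity Reduction and Active mice. Kcnj11 was picked from the first of these comparisons, so nothing is read from its place among them.

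The group means of Kcnj11 were 8245 ± 445 (SD, n = 7) for Inactive, 8718 ± 462 for Active and 9834 ± 588 for Activity Reduction mice. Between Activity Reduction and Inactive mice the log2 fold change was 0.26 (standard error 0.0429), a 19.7% higher level, and between Activity Reduction and Active mice it was 0.17 (standard error 0.0429), or 12.6%. Between Active and Inactive mice it was 0.09 (standard error 0.0429), or 6.22%. The first of these lay close to the limit of 0.25 on the log2 scale that was used for a called gene, and its value fell on either side of that limit, from 0.24 to 0.26 over 10 other settings of the analysis and from 0.23 to 0.27 over the 21 fits that left out 1 library.

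Abcc8, the receptor gene known from beta cells and the least abundant of the 4, had its highest mean in the same group as its neighbour Kcnj11, but its differences were not past the thresholds. Its normalized counts ran from 211 to 311.4 with a median of 241 in Inactive mice and from 214 to 292 with a median of 266 in Active mice. Activity Reduction mice ran from 237 to 407 with a median of 324. The groups overlapped, with 4 of 7 Activity Reduction mice above the highest Inactive mouse and 5 of 7 above the highest Active mouse.

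The means of Abcc8 were 250.0 ± 32.8 (SD, n = 7), 258 ± 26.2 and 314.5 ± 57.3 normalized counts in Inactive, Active and Activity Reduction mice. Between Activity Reduction and Inactive mice the log2 fold change was 0.34 (standard error 0.107, 95% interval 0.11 to 0.56), with an adjusted p-value of 0.445 over all genes in edgeR's quasi-likelihood test. Its unadjusted p-value there was 0.00471 in edgeR, in a comparison in which 7.73% of all genes tested had an unadjusted p-value under 0.05. Between Activity Reduction and Active mice the log2 fold change was 0.28 (standard error 0.107, 95% interval 0.06 to 0.50) with an adjusted p-value of 0.258 in edgeR. Between Active and Inactive mice it was 0.05 (standard error 0.107, 95% interval -0.17 to 0.28), with an adjusted p-value of 0.897 in edgeR.

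A two-sided exact permutation test of the normalized counts of Abcc8 gave p = 0.0245 between Activity Reduction and Inactive mice and p = 0.0332 between Activity Reduction and Active mice. These 2 were among 9 exact tests made of 3 members, and their p-values are not adjusted. The smallest value that 7 mice against 7 allow is 0.000583. Leaving out 1 mouse in turn gave exact p-values from 0.00699 to 0.0490 in the former comparison and from 0.00932 to 0.0664 in the latter. Against Active mice the exact p-value rose above 0.05 without replicates 2, 3, 4 or 6 of the Activity Reduction group or without replicates 4, 5 or 6 of the Active group, with values of 0.0594, 0.0641, 0.0664 and 0.0653 for the former and 0.0571, 0.0653 and 0.0524 for the latter. Abcc8 had between 204 and 388 reads per library, and counting alone gives each value an error of 5.08% to 7.00%, which is under the spread of 10.2% to 18.2% between mice of a group.

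Kcnj8, the pore gene of vascular smooth muscle and pericytes, showed no difference between the groups that passed a test. Its normalized counts ran from 634 to 748 with a median of 704 in Inactive mice, from 662 to 906 with a median of 715 in Active mice and from 608 to 915 with a median of 737 in Activity Reduction mice. The groups overlapped over most of their range, and the spread between mice was 5.98% of the mean among Inactive mice against 11.7% and 12.4% among Active and Activity Reduction mice. The means were 697 ± 41.7 (SD, n = 7), 758 ± 89.0 and 739 ± 91.8.

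For Kcnj8 the log2 fold change between Active and Inactive mice was 0.13 (standard error 0.0776, 95% interval -0.03 to 0.29), with an adjusted p-value of 0.562 in edgeR. For Activity Reduction mice it was 0.09 (95% interval -0.07 to 0.25, adjusted p-value 0.848 in edgeR) against Inactive mice and -0.04 (95% interval -0.20 to 0.12, adjusted p-value 0.869 in edgeR) against Active mice. Two-sided exact permutation tests gave p-values of 0.138, 0.315 and 0.705 in the same order. The intervals of the first 2 comparisons did not exclude log2 fold changes of up to 0.29 and 0.25.

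Abcc9, the receptor gene of both muscle fibres and smooth muscle, had the lowest spread of the 4 over all 21 mice, 4.62% of its mean, though within Active mice that of Kcnj11 was lower, with 5.30% against 6.72%. Its normalized counts ran from 15184 to 16118 with a median of 15824 in Inactive mice, from 13508 to 16750 with a median of 15569 in Active mice and from 14769 to 16680 with a median of 15472 in Activity Reduction mice. Inactive mice lay within the range of Active mice, with a spread of 2.17% of their mean, and that of Activity Reduction mice was 4.39%. The means were 15733 ± 341 (SD, n = 7), 15386 ± 1034 and 15530 ± 681.

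For Abcc9 the log2 fold change was -0.03 (95% interval -0.11 to 0.06) between Active and Inactive mice, -0.01 (95% interval -0.10 to 0.07) between Activity Reduction and Inactive mice and 0.01 (95% interval -0.07 to 0.09) between Activity Reduction and Active mice. The adjusted p-values were 0.857, 0.979 and 0.933 in edgeR's quasi-likelihood test, and two-sided exact permutation tests gave 0.456, 0.496 and 0.772. All 3 intervals lay inside the limit of 0.25 in both directions, so a difference past that limit in total Abcc9 transcripts was outside the 95% interval in each comparison. Splice forms that changed in opposite directions would not appear in this total.

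Of the 3 members tested, 0 were differentially expressed in any comparison, where edgeR called 0%, 0.0124% and 0% of all genes in the Active against Inactive, Activity Reduction against Inactive and Activity Reduction against Active comparisons. At an unadjusted p-value under 0.05 in edgeR, 1 of the 3, Abcc8, passed in each comparison with the Activity Reduction group and 0 of the 3 passed between the Active and Inactive groups, where 7.73%, 13.3% and 10.9% of all genes did. Under the other settings of the analysis, 0 of the adjusted p-values of these members were below 0.05. The difference in response between the members was not tested.

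**Figure D2:**
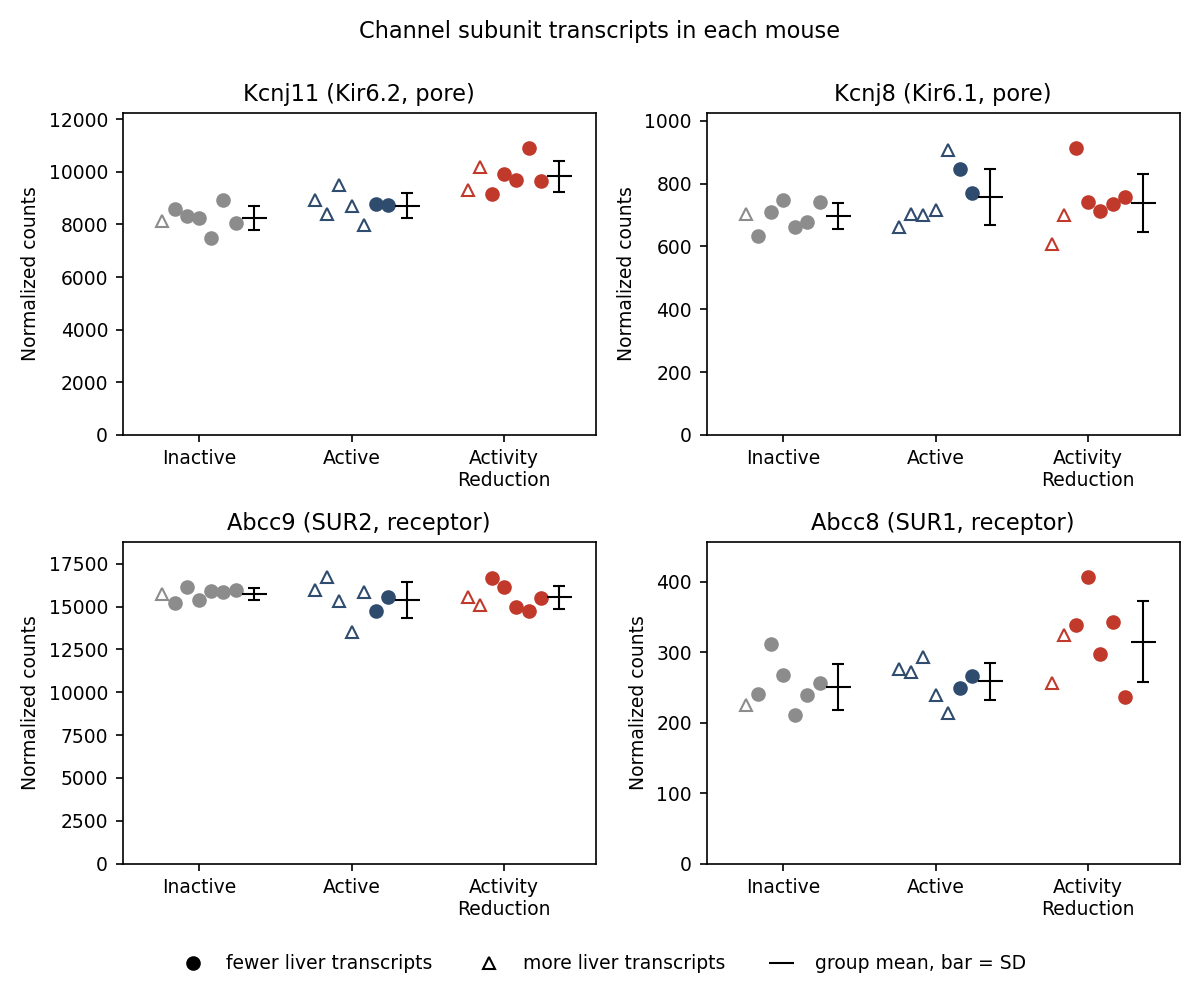
Normalized counts of each subunit transcript on axes that start at 0, with 1 point per mouse in order of replicate number, open triangles for the 8 libraries with more liver transcripts and filled circles for the other 13, and bars for the group mean and SD (n = 7). Activity Reduction mice lie above all Inactive mice for Kcnj11, overlap with them for Abcc8 and Kcnj8, and have nearly the same mean for Abcc9.

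**Figure D3:**
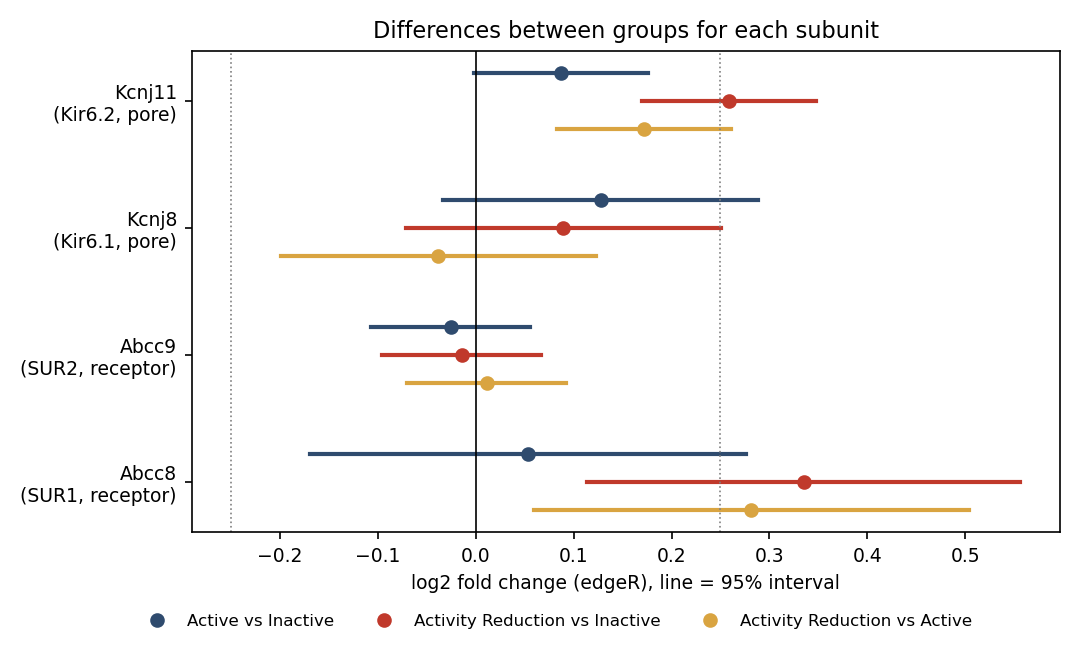
Log2 fold change of each subunit transcript in 3 comparisons, with points for the edgeR estimate, lines for its 95% interval and dotted lines at 0.25 in both directions. The intervals of Abcc9 lie inside the dotted lines, that of Abcc8 between Activity Reduction and Inactive mice runs from 0.11 to 0.56, and those of Kcnj11 are drawn as a description.

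Total counts per library were between 38482455 and 59785132, and every Active library was shallower than every Inactive library. The summed CPM of 20 liver markers parted the libraries into 13 with at most 343 CPM and 8 with at least 750 CPM, and the 8 were 1 Inactive, 5 Active and 2 Activity Reduction mice. Of the liver markers, led by Alb, Apoa1 and Cyp2e1, 0 were called and 3, 0 and 0 had an unadjusted p-value under 0.05 in edgeR over the 3 comparisons, with a median log2 fold change of 1.20 between Active and Inactive mice. Of all genes, 10.9%, 7.73% and 13.3% had such a p-value. The 8 libraries came first in the order of the deposited samples, in an unbroken run. This division, the sample order and the groups can therefore not be fully told apart. The source of the liver transcripts was not tested. The 10 muscle fibre markers, led by Acta1, Tnnt3 and Myh4, were counted in every library and summed to between 140639 and 172041 CPM. Of 6 islet and endocrine markers, 4 were at 0 in every library, Ins1 among them, and the sum of the 6 reached at most 0.334 CPM. Which cells the transcripts of Abcc8 came from was not tested.

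Differences between groups were also read within each set of libraries and were not tested there. These are the mice from which Kcnj11 was picked, so its values within the sets are a description and no further support. In the set of 13 libraries, the mean of 5 Activity Reduction mice over that of 6 Inactive mice gave a log2 ratio of 0.26 for Kcnj11, 0.35 for Abcc8, 0.15 for Kcnj8 and -0.01 for Abcc9. In the other 8, where 2 Activity Reduction mice stood against a single Inactive mouse, it was 0.26, 0.37, -0.11 and -0.04. Against the Active mice, the log2 ratio of Abcc8 was 0.33 within the former set (5 mice against 2) and 0.17 within the latter (2 mice against 5), and that of Kcnj11 was 0.17 and 0.16.

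Markers of other cells were compared because Kcnj8 and Abcc9 are also expressed by mural cells. Of 10 tested mural cell markers, led by Rgs5, Myh11 and Pdgfrb, 0 were differentially expressed in any comparison, and their median log2 fold change was 0.09 for Active and 0.03 for Activity Reduction mice against Inactive mice, where the median of all genes was 0.01 in both. The sum of the 11 mural markers in the table ran from 330 to 429 CPM in Inactive, 347 to 508 CPM in Active and 328 to 412 CPM in Activity Reduction mice. Of these markers 10 were counted in every library and 0 were at 0 in all of them. Of 8 endothelial markers, led by Flt1, Cdh5 and Pecam1, 0 were called by edgeR and Kdr, named after its values were seen, was called lower in Activity Reduction than in Active mice by DESeq2, with a log2 fold change of -0.42 and an adjusted p-value of 0.0110. Their sum ran from 244 to 295 CPM, 263 to 349 CPM and 234 to 277 CPM in the same order of groups. The 6 nerve and Schwann cell markers summed to 34.4 to 114 CPM, 35.4 to 149 CPM and 36.7 to 62.1 CPM, and 0 were called. At an unadjusted p-value under 0.05 in edgeR there were 1, 0 and 1 mural, 3, 0 and 3 endothelial and 0, 1 and 0 nerve markers in the Active against Inactive, Activity Reduction against Inactive and Activity Reduction against Active comparisons, in which 10.9%, 7.73% and 13.3% of all genes passed. In a bulk sample, fewer cells of a type and less RNA per cell cannot be told apart.

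Of the 10 muscle fibre markers 0 were called, and 2, 3 and 0 had an unadjusted p-value under 0.05 in edgeR over the 3 comparisons, where 10.9%, 7.73% and 13.3% of all genes did. The 3 between Activity Reduction and Inactive mice were Myh7, Mylpf and Acta1. Myh7, the myosin heavy chain of slow fibres, named after its values were seen, had 565 ± 65.6 CPM (SD, n = 7) in Inactive, 483 ± 150 CPM in Active and 337 ± 159 CPM in Activity Reduction mice. Its values ran from 469 to 688 CPM in Inactive and from 95.5 to 509 CPM in Activity Reduction mice, and its log2 fold change between them was -0.74 (standard error 0.276), with an adjusted p-value of 0.506 in edgeR. In the same comparison the log2 fold changes of Mylpf, a myosin light chain named after its values were seen and counted at 2.68 CPM on average, and of Acta1, the skeletal muscle actin, were 0.40 and 0.13, with adjusted p-values of 0.450 and 0.484 in edgeR. Acta1 had 26032 CPM on average, far above Mylpf. Why so few reads were counted for Mylpf was not tested, so its count is not read as the level of this light chain. Myh4, the myosin of the fast IIB fibres, had 75233, 85422 and 81544 CPM in Inactive, Active and Activity Reduction mice. The part of fibre composition in the level of Kcnj11 was not tested.

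Transcripts of proteins that work with the channel were read from lists, as were the cell markers above. The lists were chosen with earlier results of these data known, so their shares are a description. None of the 100 tested genes on the 10 lists was differentially expressed with edgeR in any comparison. DESeq2 on 3 groups called 3 of them, among which were Kdr and Kcnk5. The list of 15 partners and regulators includes glycolytic enzymes that supply ATP beside the channel, kinases that act on it, and membrane scaffolds. An unadjusted p-value under 0.05 in edgeR was found for 0% of this list between Active and Inactive mice, beside 10.9% of all genes. Between Activity Reduction and Active mice it was 13.3%, beside 13.3% of all genes. Between Activity Reduction and Inactive mice 5 had such a p-value, 3 higher and 2 lower, a share of 33.3% beside 7.73% of all genes. In this last comparison 6 of the 15 had a positive log2 fold change, and the median was -0.01 beside 0.01 for all genes. Gapdh, Pkm and Ldha, the most abundant, had log2 fold changes of 0.09, 0.05 and 0.09 and adjusted p-values of 0.644, 0.888 and 0.694 in edgeR. Cav3, the muscle caveolin, named after its values were seen, had 26.7 ± 1.19, 25.8 ± 1.19 and 29.6 ± 3.66 CPM in Inactive, Active and Activity Reduction mice and was not called.

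Of 17 genes of sarcolemmal excitability, 0 were called by edgeR. Among the most abundant were Cacna1s, the voltage sensor of excitation-contraction coupling, and Scn4a, the muscle sodium channel, whose log2 fold changes between Activity Reduction and Inactive mice were 0.00 and -0.05. At an unadjusted p-value under 0.05 in edgeR, 3 of the 17 were higher and 0 were lower in this comparison. These were Fxyd1, which regulates the sodium pump, and the voltage-gated potassium channels Kcna7 and Kcnc1, named after their values were seen, with log2 fold changes of 0.17, 0.20 and 0.25 and adjusted p-values of 0.329, 0.226 and 0.414 in edgeR. The shares of this list with an unadjusted p-value under 0.05 in edgeR were 11.8%, 17.6% and 29.4% in the Active against Inactive, Activity Reduction against Inactive and Activity Reduction against Active comparisons, beside 10.9%, 7.73% and 13.3% of all genes. Kcnk5, a two-pore potassium channel with 0.875 CPM on average, was called lower in Activity Reduction than in Active mice by DESeq2, with a log2 fold change of -1.33 and an adjusted p-value of 0.0317.

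Among other inward rectifiers, 7 of 13 genes were tested and 0 were called, with 0, 1 and 0 at an unadjusted p-value under 0.05 in edgeR over the 3 comparisons. Of all genes, 10.9%, 7.73% and 13.3% had such a p-value. The strong inward rectifier genes of muscle, Kcnj12 and Kcnj2, had 76.9 and 53.7 CPM on average, and between Activity Reduction and Inactive mice their log2 fold changes had opposite signs, 0.22 (standard error 0.115) and -0.36 (standard error 0.159), with adjusted p-values of 0.692 and 0.637 in edgeR. Kcnj3 followed with 0.614 CPM and a log2 fold change of -0.25 there. Relatives of the receptors among the ABC subfamily C transporters had 7 of 9 genes tested and 0 called, with 1, 0 and 0 at an unadjusted p-value under 0.05 in edgeR, and Abcc5, Abcc1 and Abcc4, the most abundant, had log2 fold changes of -0.04, 0.09 and 0.01 in the same comparison.

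**Figure D4:**
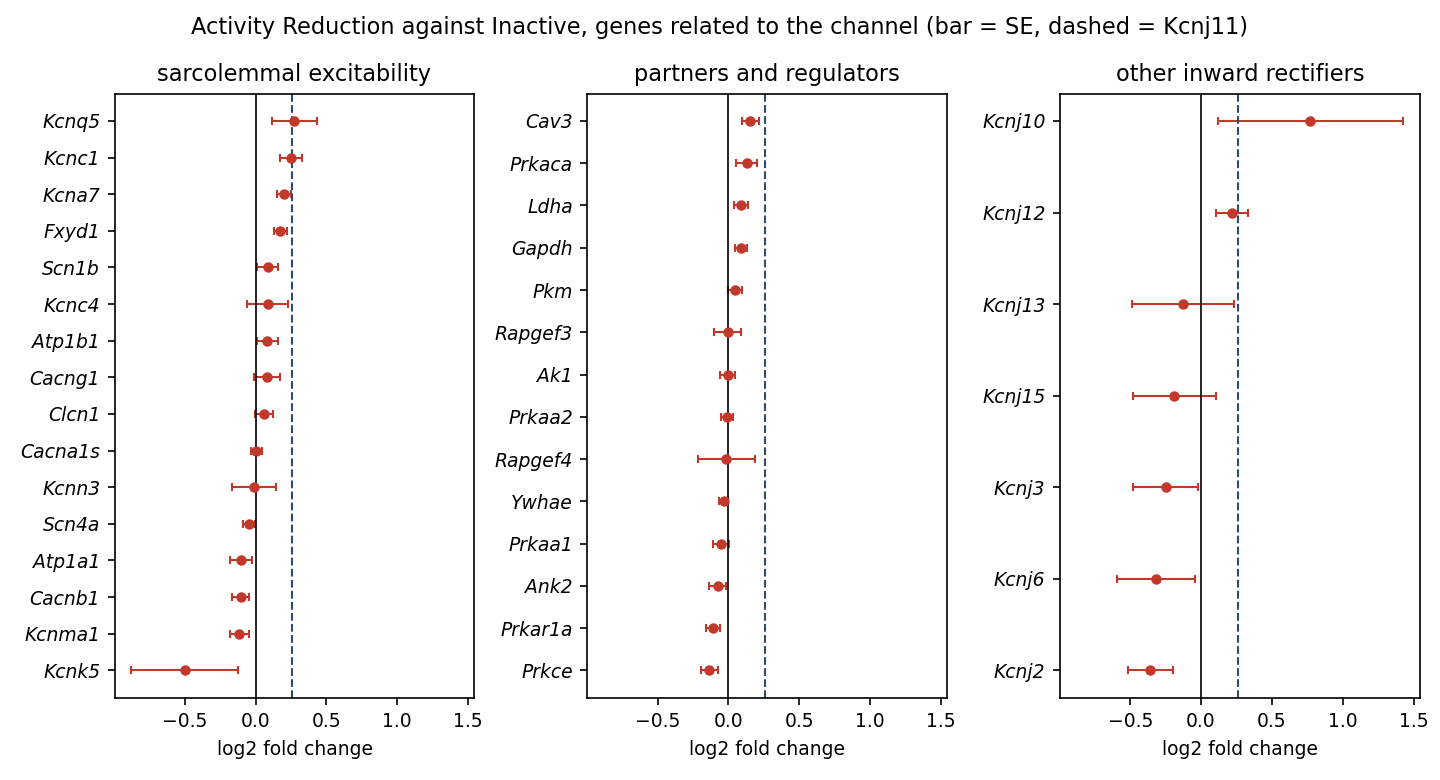
Log2 fold change between Activity Reduction and Inactive mice for tested genes of 3 lists that are reported here, with bars for the standard error and a dashed line at the value of Kcnj11, 0.26. None of the genes shown was called with edgeR, and Kcnj2 and Kcnj12 lie on opposite sides of 0.

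Across mice, no correlation between 2 members had an adjusted permutation p-value under 0.05 over the 6 pairs. This does not show that the members vary independently. After the group means were removed, the Pearson correlation of Kcnj11 with its neighbour Abcc8 over 21 mice was 0.46 and Spearman's rho was 0.54, with permutation p-values of 0.0515 and 0.0212 and Benjamini-Hochberg adjusted values of 0.309 and 0.127 over 6 pairs. Without the 2 mice farthest from the median of Kcnj11 the Pearson correlation was 0.37, and it was 0.27 in the 13 libraries with fewer liver transcripts and 0.87 in the other 8. Those 8 were 1 Inactive, 5 Active and 2 Activity Reduction mice. Group means were removed within the set, so the single Inactive mouse adds nothing and the value of 0.87 rests on few mice. Kcnj8 and Abcc9, the other neighbours, had a Pearson correlation of 0.19 and a rho of 0.15, with permutation p-values of 0.484 and 0.558. Kcnj11 and Abcc9, the pair of the muscle fibre, had a Pearson correlation of -0.36 and a rho of -0.39, with permutation p-values of 0.124 and 0.101 and adjusted values of 0.373 and 0.303. The Pearson correlation was -0.30 for Kcnj11 with Kcnj8, 0.06 for Kcnj8 with Abcc8 and 0.23 for Abcc8 with Abcc9.

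Genes with the pattern most like that of a member were found by the Pearson correlation of log2 CPM over 21 libraries, without removal of the group means, so shared differences between groups and shared scaling enter it. For Kcnj11 the highest included Smyd2, a lysine methyltransferase, with 0.86, Kcna7 with 0.85, Rbm38, which encodes an RNA-binding protein, with 0.84, and Sh2d6 with 0.81. Within the 13 and the 8 libraries these correlations were between 0.74 and 0.90, again with the group means left in. Smyd2 was itself called by edgeR between Activity Reduction and Inactive mice, with a log2 fold change of 0.44. Kcnj11 was picked from that comparison, so a shared difference between groups enters this correlation. Kcna7 ran from 243 to 293 CPM in Inactive, 268 to 318.8 CPM in Active and 289 to 332 CPM in Activity Reduction mice, so that Activity Reduction and Inactive mice overlapped only narrowly.

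The other members, which were not picked for a difference between groups, had lower correlations with the genes most like them. For Abcc8 the 5 highest were Mllt11 with 0.79, 2210016L21Rik with 0.77, Sgf29, Sun2 and Armc5 with 0.76 each. For Abcc9 they were Pcyt1a with 0.78, LOC118567927 with 0.77, and Tmod1, Mtmr6 and Gm26752 with 0.76 each. For Kcnj8 they were Atp5b, a subunit of the mitochondrial ATP synthase, with 0.76, Idua with 0.74, Kcne4, an accessory subunit of potassium channels, with 0.71, Qsox2 with 0.71 and Irf2bp2 with 0.70. No member was among the 5 genes most like another member.

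Genes beside the 2 loci were read for comparison. Next to the Kcnj11 and Abcc8 pair lie Nomo1, 5641 bp away, and Ush1c, 14147 bp away, and their log2 fold changes between Activity Reduction and Inactive mice were 0.01 (standard error 0.0415) and 0.35 (standard error 0.148), with adjusted p-values of 0.993 and 0.616 in edgeR. Next to the Kcnj8 and Abcc9 pair lie Ldhb, 55976 bp away, which encodes the lactate dehydrogenase subunit of oxidative fibres, and Cmas, 53822 bp away, with -0.32 (standard error 0.0975) and 0.07 (standard error 0.0862) and adjusted p-values of 0.411 and 0.933 in edgeR. None of the 4 neighbours was called. Exons of Abcc9 share 158 bp, 2.12% of the canonical transcript, with 5330439B14Rik on the opposite strand, which had at most 8 reads in a library. Exons of Abcc8 share 224 bp, or 4.51%, with Gm71694 and 138 bp, or 2.78%, with Gm71705, both on the opposite strand and not listed in the count table. Whether reads were counted by strand is not given in the sources used here, so reads from these overlaps cannot be told apart.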

How the data were processed

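RNA of the whole medial belly was poly(A) selected and sequenced as paired ends, 1 library per mouse. The authors used fastp to trim, STAR to align to GRCm39 and featureCounts to count the reads of each gene. Versions, strand setting and gene annotation are not given in the sources used here. The deposited values are raw counts per gene, and a companion table named for normalization was identical to it in all 857913 values, so counts were normalized again with DESeq2 size factors. Groups came from the labels. Cage and litter of the mice are not stated, so p-values take the mice as independent and measure the spread between them. Whether the mice were independent was not tested.

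The count test was edgeR's quasi-likelihood test (edgeR 4.0.16, R 4.3.3) on all 21 libraries, with TMM scaling, edgeR's filter on low counts and Benjamini-Hochberg adjustment over 16129 genes, and was tested on simulated data. The study used DESeq2, run here (1.42.0) as an alternative. Exact permutation tests used scipy 1.17.1, and correlations between members used 100000 permutations. Named genes were the members, the 5 genes most correlated with each, the 3 most abundant and any called gene of each list, and neighbouring genes. Some genes that this rule named are not reported here. The members and the lists were chosen with earlier results of these data known. Counting errors cover counting only. Gene lengths, positions and sequences came from GENCODE vM39 and GRCm39.

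Replicate numbers were checked for pairing: of 21 pairs of same-numbered mice in different groups, 7 had deviations correlated above 0.1, from -0.22 to 0.47, so the numbers were not taken to pair mice. Libraries of a group differed by far more than sampling noise, so none was a duplicate. Alternatives were DESeq2, fits on 2 groups, other scalings and filters, the liver division or liver sum as a covariate, a replicate block, and leaving out each library. Leaving out mice in the exact tests was added after seeing the data.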

Additional observations from a re-analysis of the deposited data

How the results depend on the processing

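For Kcnj8, Abcc8 and Abcc9, 0 of 277 adjusted p-values under other settings were below 0.05, the lowest being 0.164 (DESeq2 on 3 groups gave none for Kcnj8 and Abcc8 between Activity Reduction and Inactive mice), and changes of sign were confined to these small log2 fold changes. Between Activity Reduction and Inactive mice, that of Kcnj8 became -0.106 within the 8 libraries with more liver transcripts. Between Activity Reduction and Active mice, that of Abcc9 became -0.0065 with upper quartile factors and -0.0141 within those 8 libraries. With 1 library left out, it ran from -0.0230 to 0.0292 for Abcc9 and from -0.100 to 0.0061 for Kcnj8 in this comparison, and from -0.0487 to 0.0012 for Abcc9 between Active and Inactive mice. Exact p-values of the Activity Reduction against Active comparison with 1 mouse left out ran from 0.291 to 0.948 for Kcnj8 and from 0.442 to 0.9499 for Abcc9, and the direction turned in 2 of 14 such tests for each. The cause was not tested.

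The number of differentially expressed genes among all genes moved with the tool. In the Active against Inactive, Activity Reduction against Inactive and Activity Reduction against Active comparisons it was 62, 21 and 115 with DESeq2 on 3 groups and 77, 43 and 139 with DESeq2 on the 2 groups compared, against 0, 2 and 0 in edgeR. With edgeR on the 2 groups compared it was 3 in the first and 0 in the second comparison. RLE and upper quartile factors each gave 0 in the second and 1 in the third, a minimum of 10 counts in every library gave 5 in the third, and the liver division as a covariate gave 1 in the second. Leaving out 1 library gave 0 to 1, 0 to 6 and 0 to 9 genes. With the replicate number as a replicate block there were 0, 4 and 0 called genes, the adjusted p-value of Abcc8 between Activity Reduction and Inactive mice was 0.380 in edgeR, and in 4 of 21 pairs the mouse of the same number was the best match. The depth limits Abcc8 most, with a counting error of up to 7.00% per library.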
